A study of Mus musculus with 2 samples.

Results

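Lgals1, Lgals3 and Lgals8 encode galectin-1, galectin-3 and galectin-8, lectins that bind galactose-containing sugar chains on glycoproteins. The members were the rows of the deposited transcript tables assigned to these gene symbols. They were chosen by name with their measured levels in these data known, so the levels below describe them and test nothing, and they are 3 of the 14198 annotated genes that had reads in either library. In replicate 1 they took 9363 reads on 66 transcript models. In replicate 2 they took 7164 reads, spread over 54 such models.

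The cells were C2C12, an established mouse myoblast line that the labels trace to injured thigh muscle of C3H mice and that came from ATCC. Total RNA was read by long-read sequencing, in which a read can follow a transcript through its splice junctions. The samples form 1 group of 2 libraries, labelled biological replicates 1 and 2, with no treatment or control. The labels give neither the passage nor the differentiation state of the culture, and the line carries no allele or agent that they name.

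Galectins are made in the cytosol and leave the cell without a signal peptide, so they act both outside the cell and within it. Galectin-1 has a single carbohydrate-recognition domain and forms dimers, and it is known in muscle for binding laminin and integrins and for promoting myoblast fusion. Galectin-3 joins a glycine- and proline-rich tail to its lectin domain, whereas galectin-8 carries a pair of different lectin domains on a linker. In human cells galectin-3 and galectin-8 also gather on damaged endosomes and lysosomes, where galectin-8 recruits an autophagy receptor.

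Several of the transcript differences described further on fall at short annotated stretches, which are printed here so that each can be followed base by base. Bases that unannotated donors of Lgals1 add from introns are not among them. All are from the GENCODE M21 transcripts on mm10, read 5′ to 3′ on the gene's strand. Lgals1 lies on the plus strand, and the first sequence joins the coding end of exon 1 (chr15:78926796-78926804) to exon 2 (chr15:78927970-78928049). Its capitals mark the 2 bases that an upstream splice donor leaves out. The second joins the end of exon 3 to the start of exon 4 (chr15:78929775-78930037 without the intron), with capitals on the 21 bases that an inner acceptor leaves out. The third is the coding part of the extra exon of Lgals1-202 (chr15:78928565-78928583), with its stop codon in capitals.
Lgals1 exon 1 into exon 2: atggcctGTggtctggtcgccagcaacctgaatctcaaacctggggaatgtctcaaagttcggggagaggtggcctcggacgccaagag
Lgals1 exon 3 into exon 4: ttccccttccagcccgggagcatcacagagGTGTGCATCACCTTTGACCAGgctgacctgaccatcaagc
Lgals1-202 extra exon: acagggtctccttataTAG

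For Lgals3, on the plus strand, transcripts differed in whether they hold the start codon, so the exon with that codon and the start of the next are shown. Exon 2 (chr14:47379523-47379544) is 22 bases long and has the ATG in capitals. The start of exon 3 (chr14:47380053-47380112) has in capitals the first ATG left in a transcript without exon 2, up to the stop codon in its frame. The 27 bases that a longer donor adds to exon 1 (chr14:47373953-47373979) are noncoding.
Lgals3 exon 2: gaaaATGgcagacagcttttcg
Lgals3 exon 3 start: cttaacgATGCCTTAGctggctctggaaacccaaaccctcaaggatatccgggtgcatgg
Lgals3 exon 1 added end: gtgagcggcacagagagcactacccag

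Lgals8, on the minus strand, varied in the linker between its lectin domains. The first sequence holds a cassette exon of 27 bases (chr13:12451401-12451427) in capitals, between the ends of its neighbouring exons. The second is the end of the exon that Lgals8-208 lengthens (chr13:12453258-12453305), with the 27 added bases in capitals.
Lgals8 cassette exon: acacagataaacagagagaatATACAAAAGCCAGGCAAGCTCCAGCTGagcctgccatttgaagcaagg
Lgals8-208 exon end: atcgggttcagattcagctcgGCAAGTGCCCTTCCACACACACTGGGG

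The libraries held 791850 reads in replicate 1 and 735077 reads in replicate 2, of which 773408 and 722647 lay on annotated genes. Levels are given in CPM, the reads of a gene in every 1000000 annotated-gene reads, and 3 reads make 3.88 CPM in replicate 1 and 4.15 CPM in replicate 2. All 7 myoblast markers examined had reads in both libraries, with summed levels of 2609 CPM in replicate 1 and 3025 CPM in replicate 2. They were not alike in both: the determination factor gene Myf5 had 215 and 60 reads (log2 ratio of replicate 1 over replicate 2 1.73), and the muscle intermediate filament gene Des had 881 and 1187 reads (-0.53). Their adjusted p were 1.05e-16 and 5.84e-14 by the exact binomial test described with the galectin ratios. The other 5 markers were not called. Among those were Myog (438 and 454 reads) and Mymk (108 and 110 reads), genes of differentiating and fusing myoblasts. The macrophage markers Adgre1, Ptprc and Itgam had no reads, and all 6 summed to 3.88 CPM in replicate 1 and 8.30 CPM in replicate 2. The 4 endothelial markers summed to 0 and 1.38 CPM and the 4 epithelial markers to 1.29 and 0 CPM, with Cdh5, Kdr, Epcam and Cdh1 at 0. The 4 fibroblast markers summed to 40.1 and 36.0 CPM, mostly from Dcn. Wilson intervals and the p-values of the binomial and Fisher tests cover counting error only, and these tests compare the 2 libraries, not conditions.

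Lgals1 had 7962 reads in replicate 1 and 5830 reads in replicate 2, or 10295 and 8068 CPM. It was the most read gene of both libraries and took 1.03% and 0.807% of their annotated-gene reads. Its mean level was 9181 ± 1575 CPM (SD, n = 2), and its lower value stood above both values of the gene next in order, the ferritin light chain gene Ftl1 (7190 and 6969 CPM).

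Lgals3 had 1348 reads in replicate 1 and 1290 reads in replicate 2, or 1743 and 1785 CPM. Its mean of 1764 ± 29.8 CPM (SD, n = 2) ranked 58 among all genes. It was not separable from its neighbours in that order, the ribosomal protein genes Rpl6 (1855 and 1708 CPM) and Rps26 (2038 and 1470 CPM), whose values overlapped it.

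Lgals8 had 53 reads in replicate 1 and 44 reads in replicate 2, or 68.5 and 60.9 CPM. Its mean of 64.7 ± 5.40 CPM (SD, n = 2) ranked 3030, and 78.7% of genes lay at or below it. Ndufaf7, a mitochondrial complex I assembly factor, had the same read counts, and Gtf2h3, a subunit of a general transcription factor, stood at 54.3 and 74.7 CPM.

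The values of the 3 galectins did not overlap, and their order of levels was the same in both libraries. Each long read was counted once whatever its length, and length bias was not checked. The most read transcripts of Lgals1, Lgals3 and Lgals8 are 800, 1419 and 2792 bases long, so lengths rise as levels fall. Values per kilobase of these transcripts could therefore only keep the order of levels. On that scale Lgals1 had a level of 11476 ± 1969, Lgals3 of 1243 ± 21.01 and Lgals8 of 23.2 ± 1.94 CPM per kilobase (SD, n = 2 each). In RNA from a whole culture, fewer expressing cells and less RNA per cell cannot be told apart.

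Among the other galectin genes, Lgals9, which encodes another galectin with a pair of lectin domains, was the only one above a few reads. It had 83 reads in replicate 1 and 76 reads in replicate 2 (106 ± 1.52 CPM, SD, n = 2), so both of its values stood above those of Lgals8. Lgals2 and the galectin-like gene Lgalsl had 3 reads in each library. Lgals4, Lgals7, Lgals12 and the lens gene Grifin had 0 reads, which allows up to 3.88 CPM in replicate 1 and 4.15 CPM in replicate 2. Lgals6 is not a symbol of the annotation used.

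**Figure D1:**
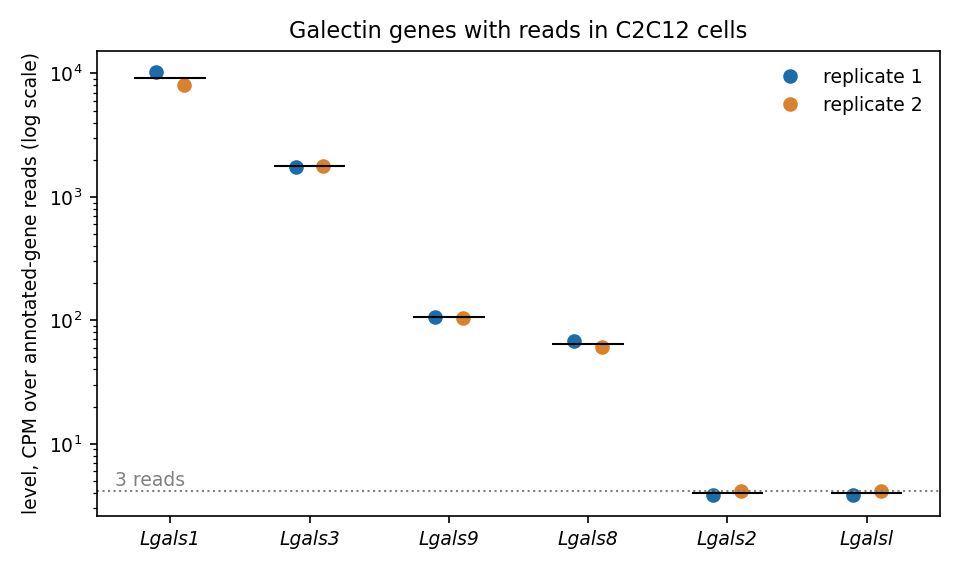
Level of each galectin gene with reads, in CPM over annotated-gene reads on a log axis. Points are the 2 libraries, black bars their mean, and the dotted line marks 3 reads in replicate 2. Lgals1 stood highest at 10295 and 8068 CPM, and Lgals2 and Lgalsl lay at about 3 reads.

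The plot of galectin levels shows Lgals1 as the galectin whose libraries lay farthest apart. Its log2 ratio of replicate 1 over replicate 2 was 0.35 (counting SE 0.025), higher in replicate 1, with an adjusted p of 2.32e-42 by an exact binomial test over all genes. This test allows for counting error alone. With edgeR's exact test at a common dispersion, which was estimated over all genes from these same 2 libraries, the adjusted p of Lgals1 was 1. Myoblast markers also differed between the libraries, Myf5 by a log2 ratio of 1.73 and Des by -0.53, and their part in the Lgals1 difference was not tested. For Lgals3 the log2 ratio was -0.035 and the adjusted p 0.891 by the exact binomial test. Its sign turned under other scalings, so it has no direction. For Lgals8 the log2 ratio was 0.17 (counting SE 0.29) with an adjusted p of 0.912 by the same exact test. Thus 1 of 3 galectins was called, where 356 of 8940 genes tested (3.98%) were called. Read depth moved with that share, since 96 of the 217 genes with at least 1000 reads (44.2%) were called. Of the 356 calls, 232 (2.6% of genes tested) were higher in replicate 1, as Lgals1 was, and 124 (1.39%) in replicate 2. TMM scaling gave 303 and 82, and DESeq2 size factors gave 315 and 78.

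Galectin reads mostly followed annotated transcripts. By their deposited class, models are known transcripts, new combinations of annotated splice sites (NIC) or models with an unannotated site (NNC). Others match part of an annotated chain of introns (ISM) or are unspliced genomic models. Some galectin models deposited as NIC nevertheless use sites that M21 does not annotate, and a Lgals1 structure was NIC and NNC in different libraries. Known, NIC and NNC models are called complete here, although none of them is shown to span a whole transcript.

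Lgals1 is annotated at chr15:78926725-78930465 (ENSMUSG00000068220.6) with 4 exons in Lgals1-201, the protein-coding transcript of 135 codons. Complete models held 7799 of its 7962 reads in replicate 1 (97.95%, Wilson 95% interval 97.62 to 98.24) and 5783 of 5830 in replicate 2 (99.19%, 98.93 to 99.39). The median gene of 4960 tested stood at 88.5% and 92.6%. Replicate 1 was thus lower by 1.24 points for Lgals1, with an adjusted p of 3.35e-07 by Fisher's exact test over all these genes. This call was 1 of 201 (4.05%), and neither Lgals3 nor Lgals8 was called. Replicate 1 was also the lower library at the median gene and over all annotated-gene reads, where complete models held 84.0% and 88.3%.

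The reads outside complete models of Lgals1 were mostly ISM models that lack the 5′ introns. ISM models took 159 reads in replicate 1 and 45 reads in replicate 2 (2.00% and 0.772%). A structure without intron 1 had 94 reads in replicate 1 and 25 reads in replicate 2, and one with the last intron alone had 58 and 14 reads. The first of these starts at the gene's start in the annotation of replicate 1 and at exon 2 in that of replicate 2. Whether its reads retained intron 1 or began downstream of it could therefore not be told apart. The structure with the last intron alone is deposited in both libraries from the end of the extra exon of Lgals1-202, unspliced into exon 3. Whether its reads retained that stretch or began downstream of it could not be told apart either.

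Lgals1-201 had 7378 reads in replicate 1 and 5476 in replicate 2, or 94.60% and 94.69% of the complete-model reads. The interval in each library was about the same, 94.08 to 95.08 and 94.08 to 95.24, and the adjusted p was 1 by Fisher's exact test. In all, 4 of 4011 genes (0.0997%) were called in the share of their main transcript, and no galectin was among them. The median gene had 88.0% and 88.2% of its complete reads on its main transcript.

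Beyond Lgals1-201, reads were split over many minor structures. Lgals1-202, annotated as a target of nonsense-mediated decay, had 20 reads in replicate 1 and 28 reads in replicate 2. Its extra exon of 103 bases brings in the TAG printed above, after 35 codons and 256 bases before the last junction. Reads joining the end of this exon to exon 3 were 0.367% of reads into exon 3 in replicate 1 and 0.499% in replicate 2, with overlapping intervals. These were 29 reads in each library, whereas 24 and 29 reads entered the exon at its annotated start.

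There were 30 unannotated complete structures of Lgals1, which together had 401 reads in replicate 1 and 279 reads in replicate 2. The 12 found in both libraries held 383 and 274 of these reads, so the rest had very few reads each. Within the unannotated structures the 5 most read changed a donor and no acceptor.

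The donor of exon 3 lay 4 bases downstream in 1.70% of reads into exon 4 in replicate 1 and in 1.72% in replicate 2. The donor of exon 1 lay 2 bases upstream in 1.64% (Wilson 95% interval 1.38 to 1.95) and 1.52% (1.24 to 1.87), and 4 bases downstream in 0.705% and 0.761%. The donor of exon 2 lay 138 bases downstream in 0.938% and 0.843% of reads. Each pair of intervals overlapped, so these low shares were alike in both libraries within counting error.

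The upstream donor of exon 1 falls directly before the GT in capitals in the first sequence, so the transcript runs from atggcct into ggtctgg. Leaving out 2 bases shifts the frame: the model with this donor and otherwise the introns of Lgals1-201 had 60 codons, with a stop 76 bases before the last junction. It had 125 reads in replicate 1 and 86 reads in replicate 2. The additions of 4 bases also break the frame by length, and the addition of 138 bases is a multiple of 3, but these bases are intronic and their sequence was not used here. An inner acceptor of exon 4, which leaves out the 21 capital bases of the second sequence, appeared in 0.0768% and 0.0874% of reads. It keeps the frame and gives 128 codons ending at the annotated stop.

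The remaining unannotated structures of Lgals1 were rare. One with the 4-base additions of both exon 1 and exon 3 had 4 reads in replicate 1 and 10 reads in replicate 2. One with an inner donor of exon 3 had 2 reads in each library and 107 codons ending at the annotated stop. A further 9 structures had 2 or 3 reads over both libraries, and 14 had 1 read. Among the 9, an exon 1 donor farther downstream had 3 and 0 reads, and one farther upstream, which removes the start codon, had 1 and 1. An upstream acceptor of exon 2 had 2 and 0 reads with the annotated donor, and 1 and 1 with the donor 2 bases upstream. Another pair joined the 4-base addition of exon 3 to a shifted acceptor of exon 4, each with 1 and 1 reads. The last 3 lengthened exon 2: by 138 bases with the extra exon (2 and 0 reads), by 138 bases with the 4-base addition of exon 3 (1 and 1), or through to the end of the extra exon (2 and 0).

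These shifts were set beside those at other donors, a comparison chosen after the values were seen. Among 1056 annotated donors of 197 genes with at least 1000 junction reads, a donor 2 bases upstream had reads in both libraries at 12 (1.14%). Exon 1 of Lgals1 ranked 3 there, at 1.59% over both libraries. A donor 4 bases downstream had reads in both libraries at 290 of the donors (27.5%). Exon 3 of Lgals1 ranked 22 for it at 1.71%, above the 95th percentile of 0.849%, and exon 1 ranked 66 at 0.729%. The alignments of single reads were not examined, so whether these shifts of 2 and 4 bases reflect splicing was not tested.

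**Figure D2:**
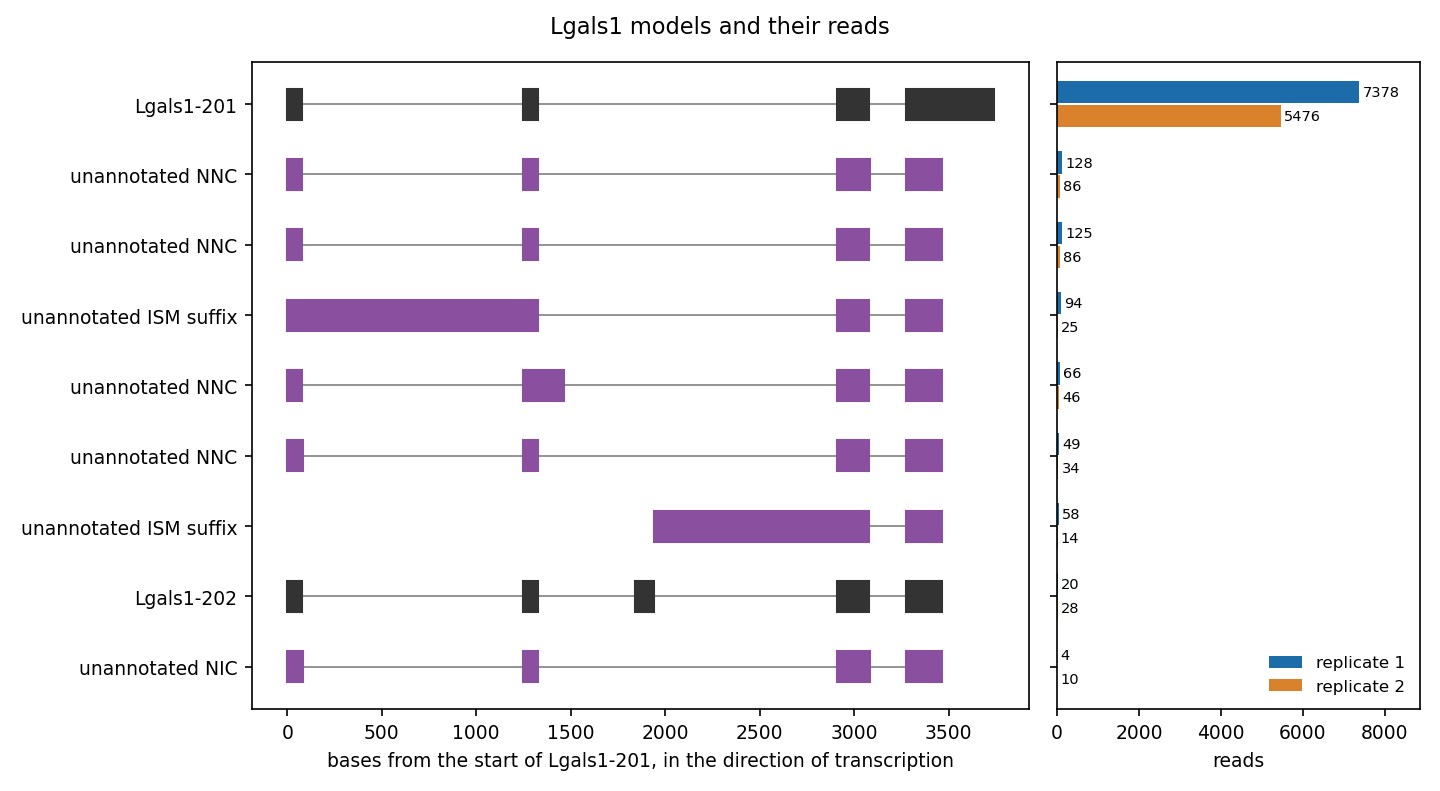
Exons (boxes) and introns (lines) of the 9 most read Lgals1 structures, by distance from the start of Lgals1-201, with reads per library on the right. Annotated transcripts are dark, unannotated structures are purple and drawn with the ends deposited for replicate 1. Lgals1-201 had 7378 and 5476 reads, and no other structure exceeded 128.

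The map of Lgals1 structures shows that the unannotated ones have a shorter last exon than Lgals1-201. Their deposited end lies 274 bases before that of Lgals1-201, at the end of Lgals1-202, for all 401 and 279 reads. That end is an annotated one, and the ends of single reads were not analysed here. The processed pseudogenes Lgals1-ps1 and Lgals1-ps2 had 0 reads in both libraries, and no other gene of the annotation overlaps Lgals1.

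Lgals3 divided its reads between 2 transcripts. The gene is annotated at chr14:47367751-47386160 (ENSMUSG00000050335.17), and 2 of its 6 annotated transcripts were read. Lgals3-201 had 608 reads in replicate 1 and 559 reads in replicate 2, and Lgals3-204 had 496 and 490. Lgals3-201 thus held 50.2% (Wilson 95% interval 47.4 to 53.1) and 48.1% (45.3 to 51.0) of complete-model reads, near the low end of genes: 7.93% of genes tested had a share at or below it.

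Both transcripts have the same coding part of 264 codons, and differ in the noncoding ends. Exon 1 ended at the longer donor, as in Lgals3-204, in 587 of 1209 reads in replicate 1 (48.6%) and in 591 of 1160 reads in replicate 2 (50.9%). The intervals were 45.7 to 51.4 and 48.1 to 53.8, and overlapped. The donors were thus used about equally, and the choice leaves the coding part unchanged.

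Exon 2, which holds the start codon printed above, was left out in 91 of 1209 reads in replicate 1 (7.53%) and in 96 of 1160 reads in replicate 2 (8.28%). Nearly all of these reads used the longer donor of exon 1. From the longer donor, 89 of 587 reads in replicate 1 (15.2%, Wilson 95% interval 12.5 to 18.3) and 96 of 591 reads in replicate 2 (16.2%, 13.5 to 19.4) skipped exon 2. From the shorter donor, 2 of 622 reads in replicate 1 (0.322%, 0.0882 to 1.16) and 0 of 569 reads in replicate 2 skipped it, which allows up to 0.527% in replicate 2. The intervals of the donors were far apart in each library, whereas those of the libraries overlapped for each donor.

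The main structure of this kind, an unannotated NIC model, had 88 reads in replicate 1 and 94 reads in replicate 2. Without exon 2 it lacks the annotated start codon. Its first ATG is the one in capitals in the exon 3 sequence, where the frame ends after 2 codons at TAG. The first ATG in the annotated frame is codon 141, from which 124 codons run to the annotated stop. Translation was not measured. An upstream acceptor that lengthens exon 2 by 44 bases had 5 and 8 reads, of which 5 and 5 came from the shorter donor and 0 and 3 from the longer one. Structures that retain only the intron between exons 2 and 3 had 4 and 4 reads from the shorter donor. From the longer donor they had 2 and 0. Another from the shorter donor, which also retains the next intron, had 1 read in replicate 1. The skip of exon 2 from the shorter donor had 2 and 0 reads, and a structure with an added exon before exon 2 had 1 and 1.

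Complete models took 1210 of 1348 Lgals3 reads in replicate 1 (89.8%) and 1161 of 1290 in replicate 2 (90.0%). Close to all of the rest were 5′-truncated ISM models, with 137 reads in replicate 1 and 126 reads in replicate 2. Those starting at exon 3 had 56 and 59 reads, at exon 2 48 and 48, at exon 4 18 and 7, and at exon 5 15 and 12. These model starts lay on annotated exon edges, and truncation of the RNA or of its copy was not tested.

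**Figure D3:**
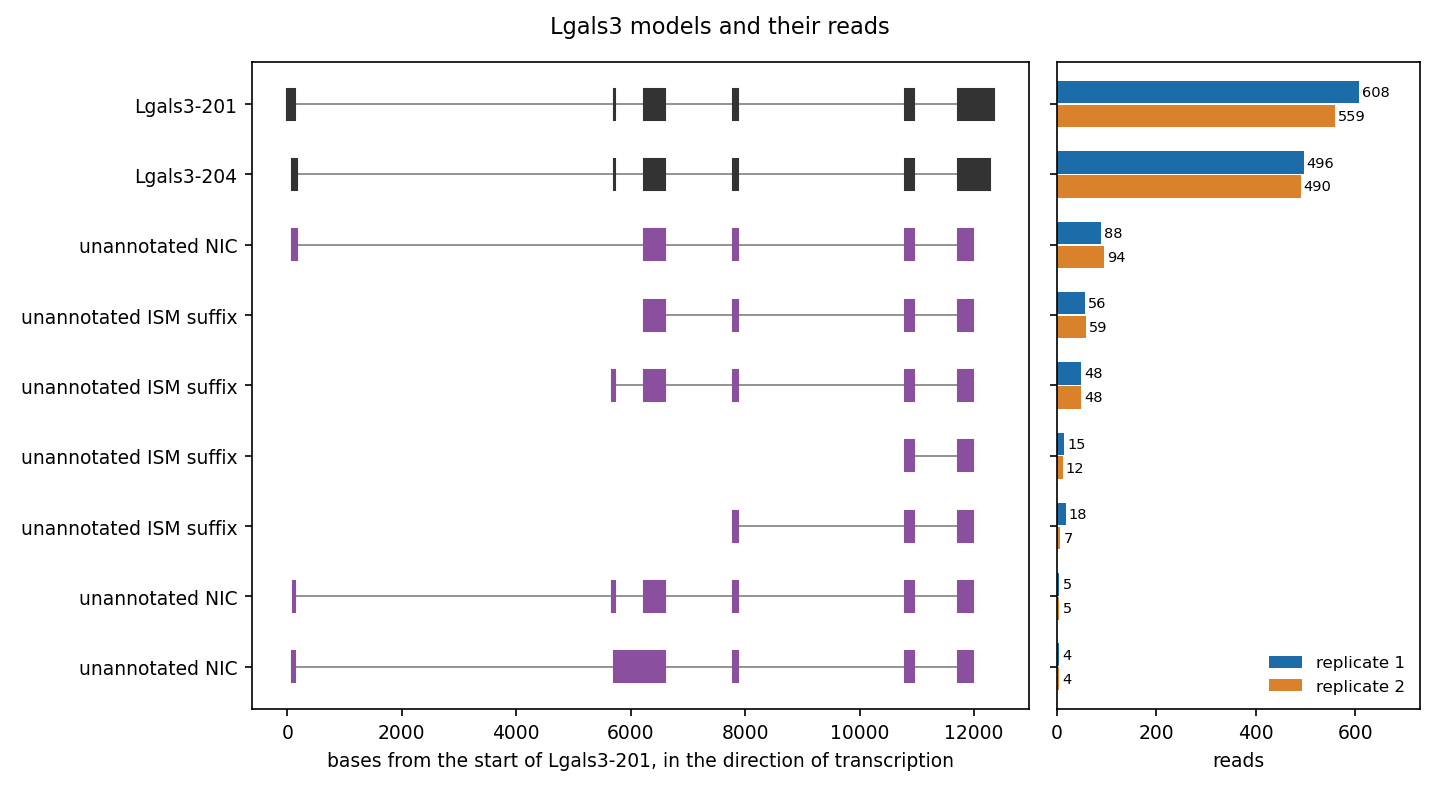
The 9 most read Lgals3 structures by distance from the start of Lgals3-201, with reads per library on the right. Dark boxes are exons of annotated transcripts and purple boxes those of unannotated structures. The first purple structure, with 88 and 94 reads, lacks the narrow exon 2 that both annotated transcripts hold.

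In the map of Lgals3 structures the annotated transcripts are close in reads, unlike Lgals1, where a single transcript prevails. All unannotated complete structures end 366 bases before Lgals3-201, over 106 and 112 reads. There were 16 of them, of which 4 were seen in both libraries. Reads that held the coding introns of the main transcript were 94.6% and 94.7% of complete reads for Lgals1, 91.7% and 91.1% for Lgals3, and 77.1% and 79.1% for Lgals8.

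Lgals8, with few reads, was spread over the most annotated transcripts. The gene is annotated at chr13:12439415-12464944 (ENSMUSG00000057554.13), and 5 of its 10 annotated transcripts were read. Lgals8-202 had 25 reads in replicate 1 and 25 in replicate 2, or 52.1% (Wilson 95% interval 38.3 to 65.5) and 58.1% (43.3 to 71.6) of complete-model reads. Lgals8-201, with the same coding part of 316 codons and another first exon end, had 12 reads in replicate 1 and 9 reads in replicate 2. The first-exon donor of Lgals8-201, which lies 186 bases farther downstream, appeared in 28.3% and 24.4% of reads into exon 2.

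The reads also varied within the linker. The cassette exon of 27 bases printed above was left out in 6 of 49 reads in replicate 1 (12.2%, Wilson 95% interval 5.73 to 24.2) and in 5 of 43 reads in replicate 2 (11.6%, 5.07 to 24.5). Of these reads, 3 and 4 joined the neighbouring exons at their annotated sites. Another 2 and 1 used an unannotated donor of the exon before, and 1 and 0 skipped further exons as well. An unannotated NIC model without the cassette exon, with 307 codons and the annotated stop, had 2 and 4 reads. The exon lengthened as in Lgals8-208 was found in 6 of 48 reads in replicate 1 (12.5%, 5.86 to 24.7) and in 1 of 42 reads in replicate 2 (2.38%, 0.422 to 12.3). The cassette exon and this lengthening are each a multiple of 3 bases. The libraries' intervals overlapped for both choices, even at 12.5% and 2.38%, so at this depth they did not resolve a difference of that size.

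Lgals8-208, with 325 codons, had 2 reads in replicate 1 and 1 read in replicate 2, and Lgals8-204, which lacks the annotated start, had 1 and 1. Lgals8-207 had 1 read and no read. ISM models had 2 reads in replicate 1 and 1 read in replicate 2, each on a structure of its own. Complete models held 48 of 53 reads in replicate 1 (90.6%) and 43 of 44 in replicate 2 (97.7%), with an adjusted p of 0.696 by Fisher's exact test. An unspliced model at the 3′ end of the gene had 3 reads in replicate 1 and no read in replicate 2. There the gene overlaps Heatr1, a ribosome biogenesis gene on the plus strand, by 875 bases. Heatr1 had 0 and 2 reads, and whether reads were assigned by strand is not given in the sources used here.

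**Figure D4:**
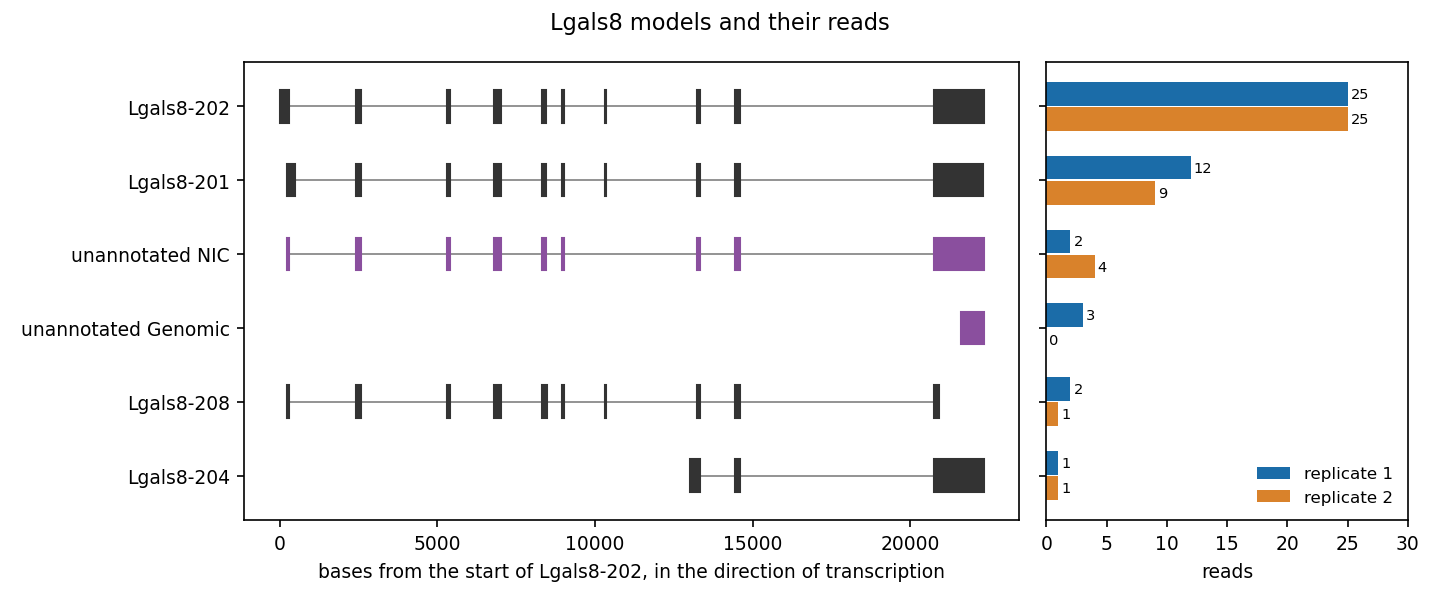
The 6 most read Lgals8 structures by distance from the start of Lgals8-202, in the direction of transcription, with reads per library on the right. Dark boxes are annotated exons and purple boxes those of unannotated structures. Lgals8-202 led with 25 reads in each library, and the purple structure with 2 and 4 reads lacks the cassette exon.

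**Figure D5:**
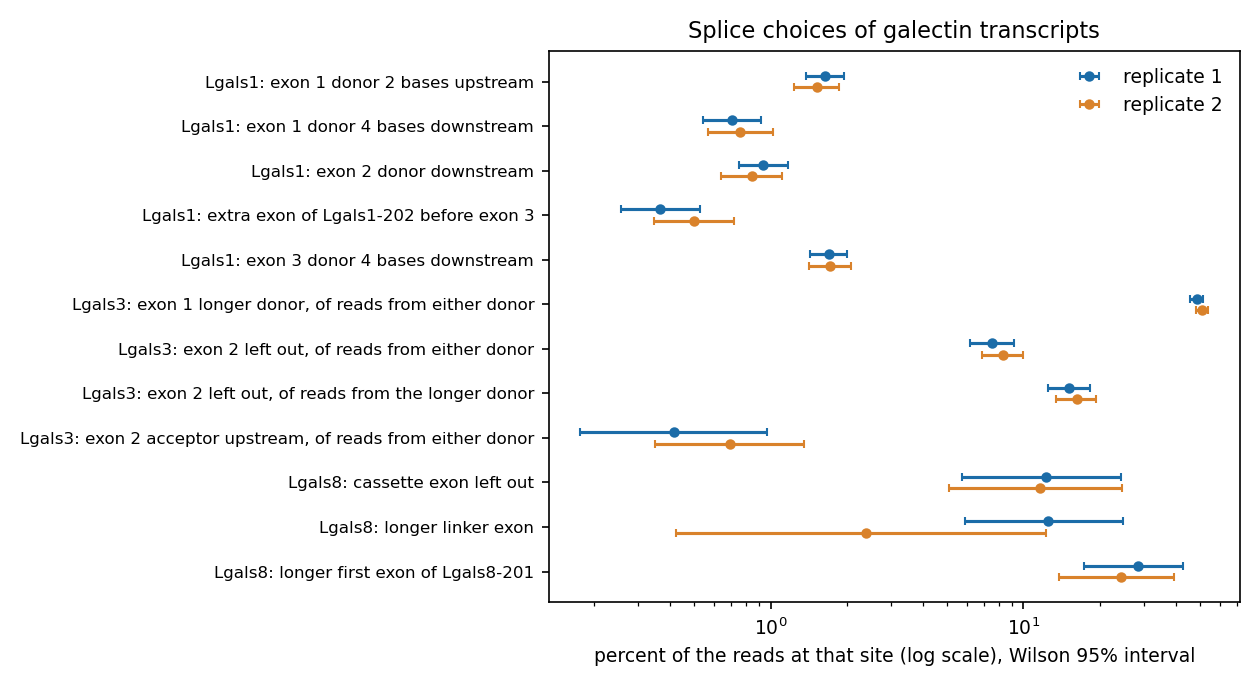
Share of reads at each site that take the named splice choice, in percent on a log axis, with Wilson 95% intervals for each library, leaving out the 2 rarest choices. The intervals of the 2 libraries overlap for each choice, and they are narrow for Lgals1 (1.64% and 1.52% at the upstream donor of exon 1) and wide for Lgals8 (12.5% and 2.38% for the longer linker exon).

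The plot of splice choices shows the galectins at different sizes of share. The departures of Lgals1 from its main transcript lay below 2% each. The donor of exon 1 of Lgals3 was near equal use, and 7.53% and 8.28% of the same reads, nearly all from the longer donor, went on without exon 2. The choices of Lgals8 lay between 2.38% and 28.3%, each with an interval over 10 points wide at 42 to 49 reads for linker choices.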

How the data were processed

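Long-read RNA-seq of C2C12 cells in 2 libraries was used. The authors deposited raw counts of reads per transcript model, 791850 and 735077 in all, with model coordinates, exon numbers and lengths. Per the file headers and the deposited description, models rest on mm10 alignments and GENCODE M21, with TALON named as the source of unannotated models. The aligner, its version, the filters and the platform were not given in the sources used here.

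From these, gene counts were summed over models, and CPM were taken over annotated-gene reads. Structures were matched between libraries by strand and exact intron chain. Genes with at least 10 reads over both libraries entered a two-sided exact binomial test given the library totals, since 1 group of 2 libraries leaves no residual degrees of freedom for edgeR's quasi-likelihood test. Log2 ratios are of replicate 1 over replicate 2 with 0.5 reads added. Shares were tested by two-sided Fisher's exact tests in genes with at least 20 reads per library. P-values were Benjamini-Hochberg adjusted over all genes tested, at 0.05. The level and complete-model share tests were tried on data simulated with counting error alone. The level test recovered 68 of 187 2-fold changes (36.4%), and the share test 143 of 200 changes of 30 points (71.5%). The main-transcript share test was not tried in this way. Reads carry no molecular identifiers, so Wilson 95% intervals and floors of 3 counts cover counting error only. Nothing states that the replicates came from separate cultures beyond their label as biological.

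The members, gene lists and tests were chosen with earlier results of these data known. Named were all members, complete models of at least 2 reads, other models of at least 1% of the gene's reads or 10 reads, neighbours in level, overlapping genes and pseudogenes, all other galectins, and of other lists the 5 highest genes and every called gene. The rule of the 5 highest was not applied to cell type markers. Alternatives were TMM and DESeq2 scaling, other read minimums, complete or known models alone, and a common dispersion. Python 3.11.15 with SciPy 1.17.1 and pandas 2.3.3, R 4.3.3, edgeR 4.0.16 and DESeq2 1.42.0 were used. Sequences are from the GENCODE M21 transcripts. Protein sequences were not used here.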

Additional observations from a re-analysis of the deposited data

How the results depend on the processing

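With 2 libraries of 1 group, calls compare libraries and not conditions. With edgeR's exact test at the common dispersion (biological coefficient of variation 0.136), 9 genes were called in place of 356, and the Lgals1 log2 ratio of 0.35 had an adjusted p of 1. That dispersion was estimated over all genes from the same 2 libraries that the test compares, so it sets Lgals1 against the spread of other genes and not against further replicates. The Lgals3 log2 ratio of -0.035 turned to 0.019 with TMM scaling, 0.026 with DESeq2 size factors and 0.034 with complete models alone. With known models alone, 98 genes in place of 201 were called in complete-model share and 14 in place of 4 in main-transcript share. The same setting turned the differences of Lgals3 in complete-model share to 0.581 points and of Lgals1 in main-transcript share to 0.238 points, neither called. The cause was not tested. Without one or the other replicate, levels ran from 8068 to 10295 CPM for Lgals1, 1743 to 1785 for Lgals3 and 60.9 to 68.5 for Lgals8. Levels per kilobase are on another scale and stand beside the levels in CPM. No paired analysis was possible because there is 1 group. Depth limits Lgals8 most, with 44 to 53 reads per library.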

Other observations

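Genes around the galectins were read as lists chosen for their roles. All 16 glycoproteins known to bind galectins had reads in both libraries, and 0 of the 14 tested were called by the exact binomial test with Benjamini-Hochberg adjustment, where 3.98% of all genes were. Bsg, which encodes basigin, had 905 and 826 reads (1157 ± 19.2 CPM, SD, n = 2). The lysosomal membrane proteins Lamp1 and Lamp2 had 1088 ± 114 and 253 ± 28.5 CPM. Itgb1, the integrin beta-1 chain, had 347 ± 6.02 CPM and Cd44, the hyaluronan receptor, 208 ± 14.6 CPM. The list's median log2 ratio of replicate 1 over replicate 2 was 0.034, against -0.061 over all genes.

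Of 14 enzymes that build the branched and galactosylated N-glycans galectins bind, 13 had reads in both libraries, and 1 of 9 tested was called, where 3.98% of all genes were. It was B4galt1, a galactosyltransferase, with 115 reads in replicate 1 and 58 reads in replicate 2 (log2 ratio 0.88, adjusted p 0.0048 by the exact binomial test). Its complete models had 21 and 22 reads, so the difference lay in its other models. Mgat2 was the highest at 129 ± 4.21 CPM, ahead of B4galt1 at 114 ± 48.4 CPM. The sialyltransferase gene St3gal4 had 83.6 ± 3.07, Mgat1 75.1 ± 11.2 and B3gnt2 51.8 ± 14.8 CPM. Mgat5, the branching enzyme for tetra-antennary glycans, had 1 read in each library, below the floor of 3 counts, and is named after its value was seen. The list's median log2 ratio was 0.066.

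Of 13 intracellular partners and genes of the damaged-membrane response, 12 had reads in both libraries. Map1lc3b, an autophagosome coat gene, was the 1 of 10 tested that was called, where 3.98% of all genes were, and 1.39% were higher in replicate 2 as it was. It had 390 and 452 reads (log2 ratio -0.31, adjusted p 0.048 by the exact binomial test). It was also the highest at 565 ± 85.7 CPM. The ESCRT genes Tsg101 and Pdcd6ip had 243 ± 6.01 and 96.5 ± 8.41 CPM, the autophagy receptor gene Tax1bp1 182 ± 15.3 CPM and Gabarapl2 135 ± 2.70 CPM. Calcoco2, whose human counterpart encodes the autophagy receptor bound by galectin-8, had 0 reads and is likewise named after its value was seen. The list's median log2 ratio was -0.11.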
